A study of Mus musculus with 42 samples.

Results

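The genes described here encode the enzymes, transporters and regulators of glycolysis, together with genes that respond to low oxygen. They were chosen by name: 36 gene symbols were listed, and each gene was read from the probe set of highest mean signal that carried its symbol alone. A probe set of that kind was found for 32 of the 36, among them Ero1l under its current symbol Ero1a, and 31 passed the filter on low signals and were tested among 12363 genes in all. Eno2, the neuronal enolase, did not pass: it lay above the array median on 0 of 42 arrays. Gapdh and Bnip3l were represented only by control probe sets or by probe sets shared with pseudogenes, so their signals are given without a test. No signals of Gpi1 and Eno1 were analysed here.

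Glycolysis splits glucose into pyruvate in a chain of cytosolic steps, and lactate dehydrogenase turns pyruvate into lactate, which leaves the cell through monocarboxylate transporters. The transcription factor HIF-1, made of Hif1a and Arnt, accumulates when prolyl hydroxylases lack oxygen and then raises transcription of most glycolytic genes, of glucose and lactate carriers and of genes such as Vegfa and Bnip3. Rapidly dividing lymphoid cells transformed by an oncogenic kinase also use glycolysis heavily when oxygen is plentiful.

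The measurements came from 21 cultured pre-B cell lines, 3 for each of 7 genotypes, each on 1 array untreated and on 1 array 2 h after 1 Gy of gamma rays from a caesium source. Every line was made by transforming bone marrow of a mouse 3 to 5 weeks old with a pMSCV retrovirus for v-abl, a viral oncogene encoding a tyrosine kinase, and every mouse carried the Eμ-Bcl2 transgene, which expresses an inhibitor of apoptosis in B-lineage cells; the WT lines share both. The genotypes were WT (no gene mutated), Atm-/- (without Atm, a kinase activated by DNA breaks), Scid (mutated in Prkdc, the catalytic subunit of DNA-PK), Mre11A/A (a hypomorph for Mre11, a nuclease that acts on broken DNA ends), and 53bp1-/-, H2ax-/- and Mdc1-/-, each without a chromatin-bound factor that gathers at DNA breaks. The study's design compared each genotype's response to radiation with that of WT and of the other mutants. Cells grew in suspension in high-glucose medium, and neither oxygen nor glucose was varied. The 3 arrays of a group are labelled as biological replicates, and the labels do not say whether the lines came from separate mice, so p-values measure the spread between these lines. Since each array holds bulk RNA, fewer cells with a transcript and less of it per cell cannot be told apart.

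Array medians lay between 62.6 and 116 on the signal scale, and 40 of the 42 were at most 82.9; the irradiated arrays of Atm-/- line 2 and WT line 4 lay above that. Of 11 pre-B cell markers 10 had a probe set, and all 10 lay above the array median on all arrays, with a summed signal of 58673 to 107510 per array. Summed signals reached 336 over 6 T-cell markers, 1115 over 9 myeloid, 274 over 3 erythroid and 454 over 7 stromal markers. Signals of Atm, H2ax, Mdc1 and Mre11a were lower in their own mutants than in WT with no overlap of the 6 arrays of each (177 against 1518, 69.5 against 10749, 60.7 against 418 and 559 against 1497), while those of Trp53bp1 and Prkdc overlapped, and a probe set can lie outside the mutated part. On the first principal component of all genes, with 14.2% of the variance, all 18 arrays of WT, Atm-/- and Scid lines lay below 0 and 22 of the 24 arrays of the other 4 genotypes above it. The labels name no batch, so an unlabelled batch and genotype cannot be told apart in any comparison across that split.

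Promoters of several of these genes are shown first. HIF-1 binds a core of the letters ACGTG or GCGTG on either strand. In the 250 bases before the annotated start, at least 1 such core stood in 39 of the 49 promoters of 33 matched genes (79.6%), against 38.6% of all 32841 promoters in the RefSeq table (build GRCm38.p6), and 2 or more in 24 (49%) against 16.7%. The genes were listed by name for glycolysis and low oxygen, so such an excess may come from that choice alone and says nothing about these arrays. The 49 include overlapping windows of Aldoa, Eno1 and Pfkm, and promoters of genes not tested here (Gpi1, Eno1, Eno2 and Gapdh). The letters CACGTG, an E-box that Myc-family and related proteins can bind and that contains ACGTG, stood in 6 of the 49, a higher share than the 6.02% of all promoters. The sequences below run 5′ to 3′ on the gene's strand and end just before the start site; capitals mark core matches read on either strand, so that a match on the other strand appears as CACGT or CACGC. Pgk1, Ldha, Bnip3 and Tpi1 stand for the genes that were higher in Atm-/- and Scid lines, and Slc16a1 and Pfkfb3 for those that were higher in the 53bp1-/-, H2ax-/- and Mdc1-/- lines and fell after radiation.
Pgk1 (chrX:106186850-106187099, plus strand): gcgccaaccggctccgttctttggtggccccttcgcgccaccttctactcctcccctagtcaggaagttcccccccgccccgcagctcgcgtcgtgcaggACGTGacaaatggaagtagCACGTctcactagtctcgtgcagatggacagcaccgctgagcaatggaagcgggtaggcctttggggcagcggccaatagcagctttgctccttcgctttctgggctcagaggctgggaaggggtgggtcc
Ldha (chr7:46845554-46845803, plus strand): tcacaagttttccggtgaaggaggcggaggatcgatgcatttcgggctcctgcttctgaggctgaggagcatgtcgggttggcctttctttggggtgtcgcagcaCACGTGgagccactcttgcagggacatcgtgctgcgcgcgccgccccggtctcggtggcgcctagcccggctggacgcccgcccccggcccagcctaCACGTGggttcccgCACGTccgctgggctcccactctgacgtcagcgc
Bnip3 (chr7:138909507-138909756, minus strand): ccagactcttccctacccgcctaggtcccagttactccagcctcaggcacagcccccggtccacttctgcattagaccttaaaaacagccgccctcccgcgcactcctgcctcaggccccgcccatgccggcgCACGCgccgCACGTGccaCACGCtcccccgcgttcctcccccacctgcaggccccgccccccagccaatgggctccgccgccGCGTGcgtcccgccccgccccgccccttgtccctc
Tpi1 (chr6:124814159-124814408, minus strand): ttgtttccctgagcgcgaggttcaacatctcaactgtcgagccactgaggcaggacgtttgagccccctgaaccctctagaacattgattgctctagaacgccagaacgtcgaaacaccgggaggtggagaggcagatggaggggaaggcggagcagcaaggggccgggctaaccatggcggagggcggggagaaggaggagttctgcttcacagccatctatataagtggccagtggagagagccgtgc
Slc16a1 (chr3:104638414-104638663, plus strand): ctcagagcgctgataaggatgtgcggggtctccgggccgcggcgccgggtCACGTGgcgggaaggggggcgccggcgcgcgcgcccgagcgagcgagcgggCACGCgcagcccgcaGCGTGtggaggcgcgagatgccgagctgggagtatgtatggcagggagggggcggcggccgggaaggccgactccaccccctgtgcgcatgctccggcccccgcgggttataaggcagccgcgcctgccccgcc
Pfkfb3, the second of its 2 promoters (chr2:11502091-11502340, minus strand): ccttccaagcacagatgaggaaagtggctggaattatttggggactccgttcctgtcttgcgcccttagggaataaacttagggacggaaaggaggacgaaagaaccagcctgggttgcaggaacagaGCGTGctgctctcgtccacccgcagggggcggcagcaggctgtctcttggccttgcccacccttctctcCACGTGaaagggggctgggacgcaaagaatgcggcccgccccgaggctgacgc
Core matches numbered 2 in Pgk1, 5 in Ldha, 5 in Bnip3, 4 in Slc16a1 and 3 in this Pfkfb3 promoter, counting both strands, and the E-box lies in the last 4 of these. The second Ldha promoter and the first Pfkfb3 promoter, not shown, have 1 match each and no E-box. The promoters shown thus hold the E-box more often than the members' promoters as a whole. Tpi1 had 0 matches in this window, which says only that the letters are not there. The matches describe letters and were not tested for binding.

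In untreated lines the enzymes Pgk1, Ldha, Aldoa and Tpi1 stood higher on average in Atm-/- and Scid lines than in the other 5 genotypes, while the lactate transporter Slc16a1 and the regulatory enzyme Pfkfb3 stood higher in 53bp1-/-, H2ax-/- and Mdc1-/- than in WT and Scid lines. A moderated F test among the 7 genotypes (limma on log2(signal + 16), Benjamini-Hochberg adjusted over all genes, threshold 0.05) called 13 of the 31 members and 16.2% of all genes. The test took its spread from all 42 arrays as if both arrays of a line were independent, as did the unblocked comparisons below. Fewer members were called on the 21 untreated arrays alone, as given in the last section. By role, it called 0 of 2 glucose transporters, 5 of 8 enzymes of upper glycolysis, 1 of 3 of lower glycolysis, 2 of 4 genes of pyruvate and lactate, 1 of 2 genes of fructose 2,6-bisphosphate, 1 of 3 of oxygen sensing, the single gene tested of mitochondrial turnover, and 2 of 8 other hypoxia targets. Scid lines had the highest mean for 10 members, 53bp1-/- lines for 9, Atm-/- lines for 7, H2ax-/- lines for 3 and Mre11A/A lines for 2, while WT and Mdc1-/- lines had it for 0. Over all genes, Scid lines had the highest mean for 20.3%, Atm-/- lines for 17.7% and 53bp1-/- lines for 9.6%. H2ax-/- lines had it for 14.7%, Mre11A/A lines for 12.7%, Mdc1-/- lines for 14.9% and WT lines for 9.98%. Mre11A/A lines had the lowest mean for 10 of the 31 members, and for 13% of all genes.

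Relative to WT, the median log2 difference over the 31 members was 0.34 in Scid lines, where 25 members were above WT, and 0.23 in Atm-/- lines, where 22 were. The medians over all genes in these comparisons were 0.02 and 0.03. In 53bp1-/- lines the members' median was 0.17 and 23 lay above WT, whereas it was -0.15 in Mre11A/A lines with 10 above, -0.12 in H2ax-/- lines with 12 above and -0.08 in Mdc1-/- lines with 12 above. These 6 comparisons share the WT arrays. With both arrays of a line linked (line as a random block), the F test called 18 members, adding Pkm, Pfkp, P4ha1, Ero1l and Slc2a1 (adjusted p between 0.0097 and 0.045), where 19.1% of all genes were called. Split at the first component, the F test called 1 member, Pgk1, among WT, Atm-/- and Scid alone (1.4% of all genes) and 0 members among the other 4 genotypes alone (1.43%), so 12 of the 13 calls were made only with genotypes from both sides of the split.

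Signals of other bright genes moved the same way. Of 143 genes outside the list whose mean log2 signal was at least 14, 125 were higher in Atm-/- than in WT lines, with a median difference of 0.17, and 134 were higher in Scid lines, with a median of 0.23. Quantile normalization, which forces the same distribution of signals on every array, brought these medians to -0.02 in both genotypes. Pgk1 and Ldha lie near the top of that distribution, with mean untreated signals of 25052 and 24996, while the highest signal of an array was as low as 30724. Quantile normalization makes the highest values of all arrays equal, so smaller differences of the brightest genes are partly built in. Under it, Pgk1 stood 0.21 above WT in Atm-/- and 0.22 in Scid lines, against 0.48 and 0.56 on the deposited values, and Ldha 0.13 and 0.02 against 0.40 and 0.34. Tpi1 stood 0.47 and 0.17 above WT against 0.65 and 0.35, Aldoa 0.36 and 0.21 against 0.51 and 0.40, and Pkm 0.24 and 0.26 against 0.32 and 0.38. The differences of all 5 enzymes were positive in both genotypes under each of the 4 scalings tried and smaller under quantile normalization, where that of Ldha in Scid lines was near 0. The F test then gave adjusted p-values of 0.059 for Pgk1, 0.32 for Ldha, 0.068 for Bnip3 and 0.057 for Vegfa, and 0.035 for Aldoa, 0.045 for Tpi1, 6.2e-05 for Slc16a1 and 0.00059 for Pfkfb3.

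**Figure D1:**
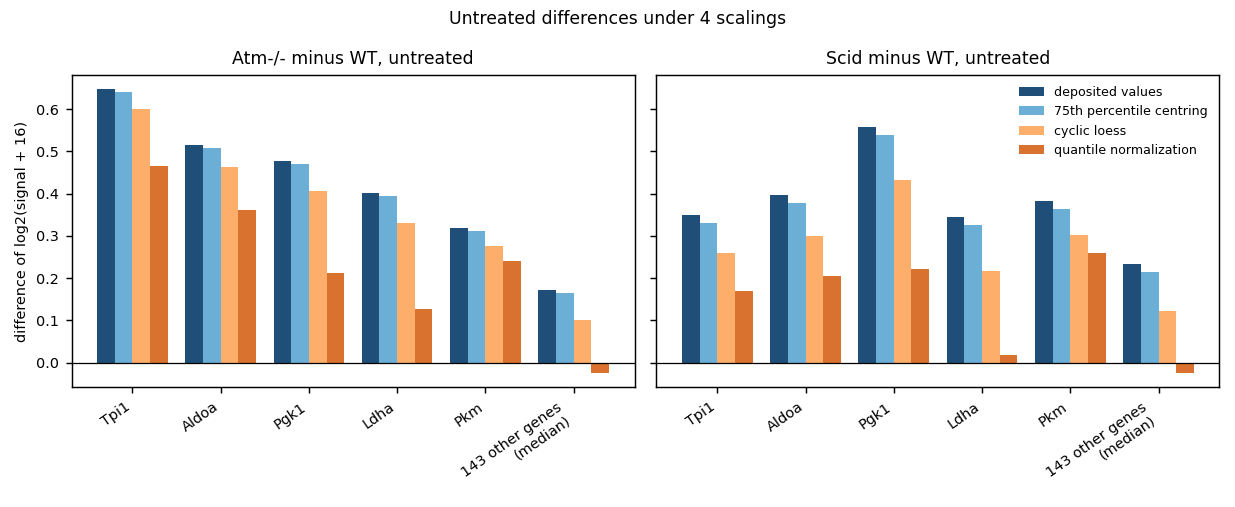
Untreated log2 difference from WT (vertical axis, log2 scale) of Tpi1, Aldoa, Pgk1, Ldha and Pkm and the median of 143 other genes of high signal, in Atm-/- and in Scid lines, under 4 scalings of the arrays. The 5 enzymes lie above 0 in every panel. The median of the other bright genes falls from 0.17 and 0.23 on deposited values to -0.02 in both genotypes under quantile normalization.

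Signals of single lines are listed below in the order of line numbers, 1, 3 and 4 for WT and 1, 2 and 3 for each mutant. Glucose enters these cells through facilitated carriers. Slc2a1, the widely expressed glucose transporter Glut1 and a HIF-1 target, had a mean untreated signal over the 21 lines of 1906 (range 1353 to 2829.9). Slc2a1 signals were 2138, 1811 and 2161 in the untreated WT lines, 1772, 2174 and 1578 in the Atm-/- lines and 1656, 2042 and 2104 in the Scid lines. For Slc2a1, the untreated Mre11A/A lines gave 1914, 1497 and 1353, the 53bp1-/- lines 2549, 2829.9 and 2088, the H2ax-/- lines 2032, 2049.6 and 1486 and the Mdc1-/- lines 1736, 1484 and 1569.9. Slc2a1 was highest on average in the 53bp1-/- and lowest in the Mre11A/A lines, a difference of -0.65 for Mre11A/A minus 53bp1-/- (SE 0.19, adjusted p = 0.045 over all pairs of mutants). 53bp1-/- lines 1 and 2 were the highest of all lines, and line 3 lay among those of other genotypes. Slc2a3, the high-affinity transporter Glut3, spanned a wide range within genotypes: its mean untreated signal was 804 (range 4.92 to 1690.5). Only 12.1% of its variance over lines lay between genotypes, and its F test was not called (adjusted p = 0.92).

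Hexokinase phosphorylates glucose and holds it in the cell. Hk1, the general isoform, had a mean untreated signal of 786 (range 383 to 1429), and Hk2, the inducible isoform, one of 1843 (range 1173 to 2996). Neither was called by the F test (adjusted p = 0.21 and 0.41).

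Phosphofructokinase commits sugar to glycolysis, and all 3 subunit genes were measured. Pfkl, the liver-type subunit, had a mean of 2045 (range 1036 to 3181) and an adjusted p of 0.028. Pfkl signals were 1530.1, 1954 and 2307 in the untreated WT lines, 3126, 3032 and 2556 in the Atm-/- lines and 1854, 3181 and 2822 in the Scid lines. For Pfkl, the untreated Mre11A/A lines gave 2695, 1140.5 and 1043, the 53bp1-/- lines 2022, 1884 and 1718, the H2ax-/- lines 1453, 1662 and 1036 and the Mdc1-/- lines 1766, 2349.5 and 1817. All 3 Atm-/- lines lay above all WT lines, the Scid lines overlapped WT, and Mre11A/A line 1 stood far above the other lines of its genotype. The call was lost without Atm-/- line 1 or 2, Scid line 2 or 3, Mre11A/A line 2 or H2ax-/- line 3 (untreated arrays, adjusted p up to 0.071). Of its 2 further probe sets 1 correlated at 0.99 with the one used over the untreated lines (adjusted p = 0.053), whereas the other, with a mean signal of 232.5, correlated at -0.32 with it, was highest in 53bp1-/- and lowest in WT lines (adjusted p = 0.00072), and put Atm-/- below H2ax-/- lines by a log2 difference of -1.14 (adjusted p = 0.013), against 1.08 above in the one used. Pfkm, the muscle-type subunit, had a mean of 534 (range 312 to 969.8) and an adjusted p of 0.033. Pfkm signals were 449.7, 594 and 428 in the untreated WT lines, 969.8, 487 and 573 in the Atm-/- lines and 588, 756 and 698 in the Scid lines. For Pfkm, the untreated Mre11A/A lines gave 376, 365 and 312, the 53bp1-/- lines 720.3, 393 and 536, the H2ax-/- lines 468, 466 and 495 and the Mdc1-/- lines 456, 549 and 532. The Mre11A/A lines held the 3 lowest Pfkm signals of all 21 lines, below every Atm-/- and Scid line by a log2 difference of 0.86 and 0.92 on average (SE 0.22 each, adjusted p = 0.018 and 0.011). Its F test lost the call without Scid line 2 or 3 or any of the Mre11A/A lines (adjusted p up to 0.12). Pfkp, the platelet-type subunit, had a mean of 3454 (range 1987 to 6783). Its signals of 4842, 6783 and 5983 in the Scid lines were the 3 highest of all lines; the differences were 1.15 from H2ax-/- (SE 0.32, adjusted p = 0.033) and 1.28 from Mdc1-/- lines (SE 0.32, adjusted p = 0.016), while the F test missed the threshold (adjusted p = 0.066).

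Aldolase cleaves the sugar into a pair of triose phosphates. Aldoa, the main isoform, had a mean of 17730 (range 10185 to 26402) and an adjusted p of 0.0019. Aldoa signals were 15282, 16264 and 18811 in the untreated WT lines, 22881, 24500 and 24334 in the Atm-/- lines and 17432, 26402 and 23136 in the Scid lines. For Aldoa, the untreated Mre11A/A lines gave 17827, 10185 and 11109, the 53bp1-/- lines 17109, 16626 and 18183, the H2ax-/- lines 13648, 17407 and 14956 and the Mdc1-/- lines 14876, 16874 and 14480. All Atm-/- lines lay above all WT lines, Scid lines 2 and 3 did as well, and Mre11A/A lines 2 and 3 were the lowest of all. The difference between Atm-/- and Mre11A/A was 0.92 (SE 0.17, adjusted p = 0.0011), a 1.89-fold difference on the scale of signal + 16. Of the 4 further Aldoa probe sets 2 were called (adjusted p = 0.013 and 0.022) and 2 were not (0.093 and 0.16). Aldoc, the brain-type isoform and a hypoxia-induced gene, varied far more, with a mean of 793 (range 45 to 5143) and an adjusted p of 0.034. Aldoc signals were 723, 664 and 671 in the untreated WT lines, 193, 146 and 591 in the Atm-/- lines and 45, 60.5 and 541 in the Scid lines. For Aldoc, the untreated Mre11A/A lines gave 114, 331 and 81.8, the 53bp1-/- lines 5143, 991 and 2038, the H2ax-/- lines 423, 2354 and 117 and the Mdc1-/- lines 695, 152 and 581. The 53bp1-/- lines were on average 16-fold above the Scid lines (log2 difference of Scid minus 53bp1-/- -4.00, SE 0.97, adjusted p = 0.013) and 13.4-fold above the Mre11A/A lines (-3.75, SE 0.97, adjusted p = 0.021), without overlap, but H2ax-/- line 2 lay among them. The Aldoc F test lost the call without line 1 or 2 of Scid, or line 1 or 3 of Mre11A/A or 53bp1-/- (adjusted p up to 0.14). Triosephosphate isomerase, Tpi1, interconverts the products of aldolase; its mean was 16715 (range 9921 to 30307) and its adjusted p 0.0037. Tpi1 signals were 14758, 16232 and 16541 in the untreated WT lines, 30307, 23621 and 21316 in the Atm-/- lines and 16252, 22356 and 22507 in the Scid lines. For Tpi1, the untreated Mre11A/A lines gave 17670, 9921 and 10353, the 53bp1-/- lines 15548, 14440 and 15982, the H2ax-/- lines 13501, 15516 and 11015 and the Mdc1-/- lines 12958, 17587 and 12638. The Atm-/- lines lay above every WT line, and Scid line 1 lay among the WT lines while its other two lay above them. Atm-/- exceeded Mre11A/A by 1.02 (SE 0.20, adjusted p = 0.0023), H2ax-/- by 0.91 (SE 0.20, adjusted p = 0.0069), Mdc1-/- by 0.80 (SE 0.20, adjusted p = 0.018) and 53bp1-/- lines by 0.70 (SE 0.20, adjusted p = 0.045). Of the 2 further Tpi1 probe sets 1 was called by the F test (adjusted p = 0.011) and missed only the 53bp1-/- difference (0.10). The other was not called by the F test (0.17). It gave the same directions but called only the Mre11A/A difference (0.74, adjusted p = 0.043). It missed those from H2ax-/-, Mdc1-/- and 53bp1-/- lines (adjusted p = 0.24, 0.43 and 0.62).

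In the lower pathway, Pgk1, the phosphoglycerate kinase that makes the first ATP of glycolysis, showed the smallest p of all members, with a mean of 25052 (range 17210 to 36559) and an adjusted p of 6.7e-06. Pgk1 signals were 22308, 23424 and 22791 in the untreated WT lines, 31959, 33039 and 30485 in the Atm-/- lines and 28749, 36559 and 36196 in the Scid lines. For Pgk1, the untreated Mre11A/A lines gave 24071, 17956 and 17210, the 53bp1-/- lines 24362, 22303 and 24458, the H2ax-/- lines 19135, 22453 and 21501 and the Mdc1-/- lines 21327, 23831 and 21972. Every Atm-/- and every Scid line lay above every line of the other 5 genotypes. Scid lines exceeded WT by 0.56 (SE 0.11, adjusted p = 0.013), a 1.47-fold difference, while the Atm-/- difference of 0.48 (SE 0.11) missed the threshold (adjusted p = 0.081). The Scid call was lost when untreated WT line 1, Scid line 2 or Scid line 3 was left out (adjusted p up to 0.078), under quantile normalization (0.22, adjusted p = 0.53), and under 75th percentile centring and cyclic loess (adjusted p = 0.055 and 0.062). Both further Pgk1 probe sets were called by the F test (adjusted p = 0.0015 and 7.1e-06) but not in Scid against WT (0.39 and 0.42, adjusted p = 0.077 and 0.067).

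Pgam1, the phosphoglycerate mutase, had a mean of 8964 (range 6574 to 12626) and was not called (adjusted p = 0.22). Pkm, the pyruvate kinase gene of the final step, had a mean of 13952 (range 10512 to 18311) and an adjusted p of 0.056 in the F test (0.034 with the line as a random block); Scid exceeded Mre11A/A lines by 0.48 (SE 0.13, adjusted p = 0.033). Gapdh, the triose dehydrogenase, was read from a control probe set at its 3′ end, with means over all 6 arrays of a genotype of 24213 in WT, 32156 in Atm-/-, 32450 in Scid and, as the lowest, 22851 in H2ax-/- lines, untested. Its other control probe sets and the brightest one shared with pseudogenes were also lowest in H2ax-/- and highest in Atm-/- or Scid lines. Dimmer ones shared with a pseudogene differed: 1 was lowest in WT (538) and highest in H2ax-/- lines (967). Another was highest in WT (288) and lowest in Scid lines (170). Eno2 had a mean untreated signal of 17.1 (range 1.03 to 57.5).

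Pyruvate is made into lactate by lactate dehydrogenase, whose main subunit gene here is Ldha, or passed to mitochondria unless Pdk1, a kinase that shuts pyruvate dehydrogenase, holds it back. Ldha had a mean of 24996 (range 18646 to 33458) and an adjusted p of 0.0001. Ldha signals were 22064, 24173 and 25957 in the untreated WT lines, 33458, 32689 and 29192 in the Atm-/- lines and 28069, 31111 and 32420 in the Scid lines. For Ldha, the untreated Mre11A/A lines gave 25098, 21848 and 18646, the 53bp1-/- lines 24374, 21947 and 22284, the H2ax-/- lines 19650, 22973 and 20811 and the Mdc1-/- lines 22279, 24175 and 21689. All Atm-/- and all Scid lines lay above all other lines, as for Pgk1. Differences of Atm-/- from WT (0.40, SE 0.10) and of Scid from WT (0.34, SE 0.10) missed the threshold (adjusted p = 0.13 for both), while all 8 differences of Atm-/- or Scid lines from the other 4 mutants were called, between 0.42 and 0.59. Pdk1 had a mean untreated signal of 4435 (range 2934 to 6694) and was not called (adjusted p = 0.32).

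Lactate and pyruvate cross the membrane through Slc16a1 (the transporter MCT1) and Slc16a3 (MCT4, a HIF-1 target). Slc16a1 had a mean of 9819.8 (range 5268 to 14085) and an adjusted p of 0.0004. Slc16a1 signals were 7719, 7794 and 7139 in the untreated WT lines, 7347, 7678 and 14085 in the Atm-/- lines and 5280.4, 6776 and 5268 in the Scid lines. For Slc16a1, the untreated Mre11A/A lines gave 8446, 12376 and 6894, the 53bp1-/- lines 12755, 12514 and 10912, the H2ax-/- lines 12662, 13099 and 11408 and the Mdc1-/- lines 12409, 11635 and 12020. The 9 lines of 53bp1-/-, H2ax-/- and Mdc1-/- lay between 10912 and 13099, above all WT and all Scid lines, while Mre11A/A line 2 lay among them and Atm-/- line 3 above them, apart from the other lines of their genotypes. Against WT, the H2ax-/- difference was 0.71 (SE 0.20, adjusted p = 0.033, 1.64-fold) and the Mdc1-/- difference 0.67 (SE 0.20, adjusted p = 0.040, 1.59-fold). That of 53bp1-/- was 0.67 (SE 0.20) with an adjusted p of 0.054. Scid lines lay below these 3 genotypes by 1.07, 1.11 and 1.07 (53bp1-/-, H2ax-/-, Mdc1-/-; SE 0.20 each, adjusted p = 0.0011, 0.00072 and 0.0011) and below Atm-/- lines by 0.69 (adjusted p = 0.040), the single call between Atm-/- and Scid. Both calls against WT were lost whenever any of the 3 untreated WT arrays or any of that mutant's 3 untreated arrays was left out (adjusted p up to 0.12 and 0.13), under 75th percentile centring (adjusted p = 0.063 and 0.072) and with the mean of the gene's probe sets. A second Slc16a1 probe set of low signal (mean 51.2) was not called in any of these tests. Slc16a3 had a mean untreated signal of 136 (range 4.59 to 759.6) and was not called (adjusted p = 0.43).

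Pfkfb3 and Pfkfb4 make fructose 2,6-bisphosphate, the strongest activator of phosphofructokinase. Pfkfb3 had a mean of 817 (range 477 to 1465) and an adjusted p of 0.00035. Pfkfb3 signals were 632, 581 and 669.9 in the untreated WT lines, 477, 648 and 899 in the Atm-/- lines and 539, 516 and 496 in the Scid lines. For Pfkfb3, the untreated Mre11A/A lines gave 819, 818 and 746, the 53bp1-/- lines 1465, 1148 and 977, the H2ax-/- lines 951, 929 and 873 and the Mdc1-/- lines 973, 971 and 1035. The 3 Scid lines lay below all WT lines, whereas all Mre11A/A, 53bp1-/-, H2ax-/- and Mdc1-/- lines lay above them. The 53bp1-/- difference from WT was 0.90 (SE 0.19, adjusted p = 0.0062, 1.86-fold) and that of Mdc1-/- 0.65 (SE 0.19, adjusted p = 0.043, 1.57-fold; 0.064 with the line as a random block). The first was lost without 53bp1-/- line 1 (adjusted p = 0.071) and the second without any of the 3 untreated WT or 3 untreated Mdc1-/- arrays (adjusted p up to 0.15). The Mdc1-/- call was also lost under quantile normalization, 75th percentile centring and cyclic loess (adjusted p = 0.058, 0.060 and 0.089), and both calls with the mean of the gene's probe sets. Scid lines lay below 53bp1-/- by 1.17 (SE 0.19, adjusted p = 0.00033), below H2ax-/- by 0.81 (SE 0.19, adjusted p = 0.012) and below Mdc1-/- lines by 0.92 (SE 0.19, adjusted p = 0.0040). A second Pfkfb3 probe set (mean 135) was not called, and its 53bp1-/- difference from WT was -0.19. Pfkfb4 had a mean untreated signal of 158 (range 84.2 to 246) and was not called (adjusted p = 0.22).

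**Figure D2:**
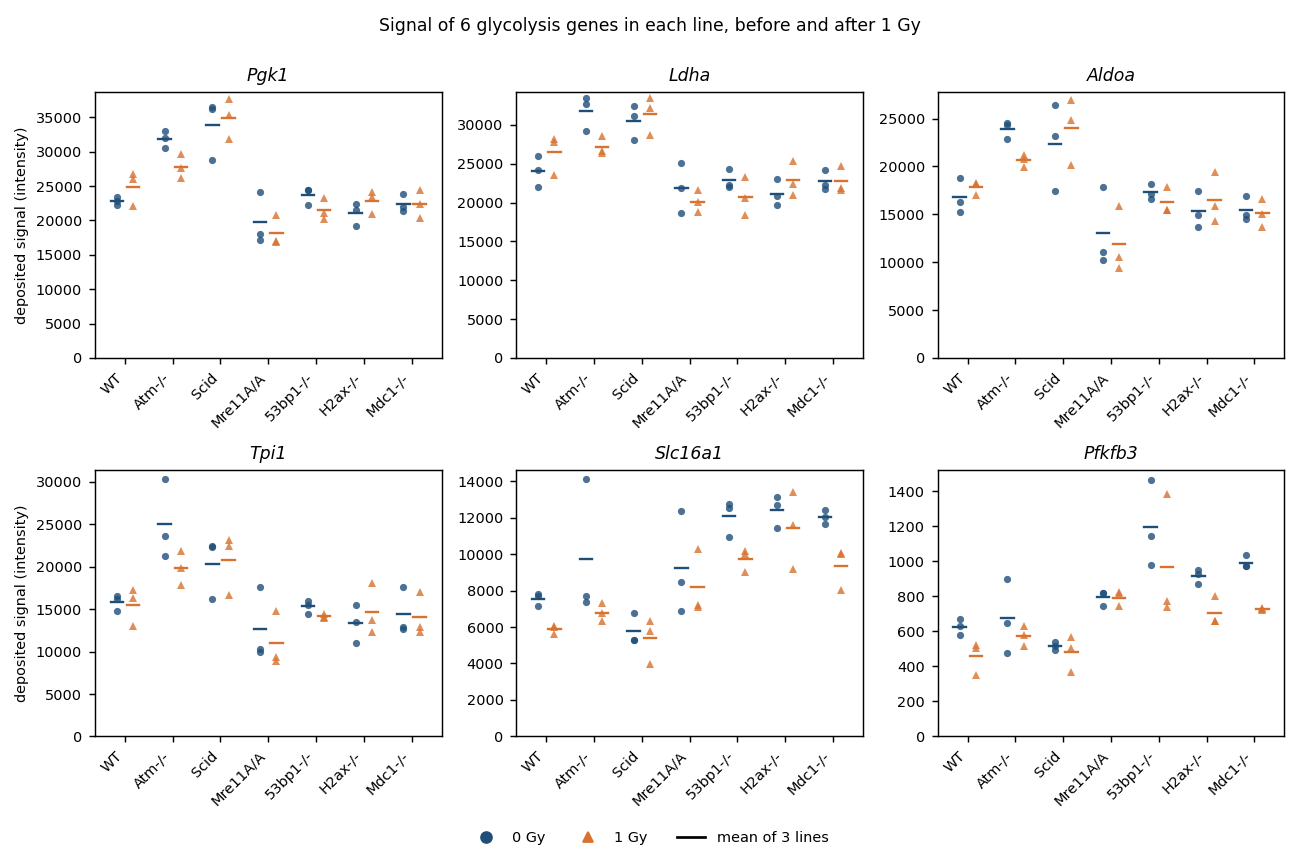
Signal (vertical axis, linear intensity) of Pgk1, Ldha, Aldoa, Tpi1, Slc16a1 and Pfkfb3 in each line by genotype, with circles for untreated and triangles for irradiated arrays and a line at the mean of 3. All untreated Atm-/- and Scid lines lie above all other untreated lines for Pgk1 and Ldha, while the untreated 53bp1-/-, H2ax-/- and Mdc1-/- lines lie above WT and Scid for Slc16a1 and Pfkfb3.

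Oxygen is sensed by prolyl hydroxylases, Egln1 and its inducible relative Egln3, which mark Hif1a for destruction. Hif1a itself had a mean untreated signal of 5095 (range 3838 to 7465) and was not called (adjusted p = 0.13). Egln1 had one of 1913 (range 1197 to 2352) and was not called either (adjusted p = 0.37). Egln3, whose transcription HIF raises in turn, had a mean of 257 (range 4.56 to 1168) and an adjusted p of 0.026. Egln3 signals were 341, 211 and 73.7 in the untreated WT lines, 758, 67.6 and 69.9 in the Atm-/- lines and 1168, 517 and 402 in the Scid lines. For Egln3, the untreated Mre11A/A lines gave 19.7, 51 and 6.56, the 53bp1-/- lines 401, 354 and 45.7, the H2ax-/- lines 34.6, 18.9 and 4.56 and the Mdc1-/- lines 36.6, 682 and 132. The Scid lines lay at 402 or above and the Mre11A/A and H2ax-/- lines at 51 or below, so those groups did not overlap. The Scid difference was 4.08 from Mre11A/A (SE 1.03, adjusted p = 0.018) and 4.27 from H2ax-/- lines (SE 1.03, adjusted p = 0.013), on a log2 scale that understates differences at such low signals. Lines of a genotype also stood far apart, as in Atm-/-, where line 1 lay far above the other two. The F test lost the call without Scid line 1 or 2, Mre11A/A line 3 or H2ax-/- line 2 or 3 (adjusted p up to 0.074), and a second Egln3 probe set was not called (adjusted p = 0.12).

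Bnip3 is a mitochondrial protein that targets mitochondria for autophagy and a strong HIF-1 target. It had a mean of 8849.9 (range 5279 to 15796) and an adjusted p of 0.047. Bnip3 signals were 7301, 11544 and 7908 in the untreated WT lines, 12741, 14806 and 10516 in the Atm-/- lines and 6398, 13316 and 15796 in the Scid lines. For Bnip3, the untreated Mre11A/A lines gave 9038, 6094 and 5287, the 53bp1-/- lines 9256, 7034 and 9944, the H2ax-/- lines 6559, 8761 and 5395 and the Mdc1-/- lines 5279, 6622 and 6254. Scid lines 3 and 2 and Atm-/- lines 2 and 1 held the highest signals, WT line 3 followed, and Scid line 1 was far below them. The single called pair was Atm-/- against Mdc1-/- (1.06, SE 0.29, adjusted p = 0.034). Bnip3l, the related gene read from a probe set shared with a pseudogene, had means of 4580 in WT, 5553 in Atm-/-, 6239 in Scid and 3179 in Mre11A/A lines over 6 arrays each, untested.

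Among the other hypoxia targets, Vegfa, the vascular growth factor, had a mean of 1797 (range 1128 to 2770.5) and an adjusted p of 0.049. Vegfa signals were 1569.9, 1476 and 1941 in the untreated WT lines, 1128, 1941 and 1466 in the Atm-/- lines and 2146, 1600 and 1643 in the Scid lines. For Vegfa, the untreated Mre11A/A lines gave 1969.9, 1603 and 1458, the 53bp1-/- lines 2770.5, 2599 and 2291, the H2ax-/- lines 1548, 1622 and 2162 and the Mdc1-/- lines 1604, 1691 and 1506. The 3 53bp1-/- lines were the highest of all 21, and they exceeded Atm-/- by 0.78 (SE 0.19, adjusted p = 0.012) and Mdc1-/- lines by 0.67 (SE 0.19, adjusted p = 0.037). Its difference from WT of 0.62 (SE 0.19) had an adjusted p of 0.062, and of 0.042 with the line as a random block. A second Vegfa probe set (mean 449.7) was highest in Atm-/- lines and put Atm-/- above 53bp1-/- lines by 0.28 (adjusted p = 0.55), the opposite direction, and its F test was not called (adjusted p = 0.069). Ankrd37, a small ankyrin-repeat protein and HIF-1 target, had a mean of 687 (range 119 to 1542) and an adjusted p of 0.0496. Ankrd37 signals were 178, 349 and 445 in the untreated WT lines, 286, 368 and 1012 in the Atm-/- lines and 1157, 879.5 and 1378 in the Scid lines. For Ankrd37, the untreated Mre11A/A lines gave 647, 583 and 339, the 53bp1-/- lines 1239, 1542 and 859.8, the H2ax-/- lines 697, 484 and 661 and the Mdc1-/- lines 542, 119 and 662. All Scid and all 53bp1-/- lines lay above all WT lines. The 53bp1-/- difference from WT was 1.90 (SE 0.55), with an adjusted p of 0.052 and of 0.017 with the line as a random block, which also brought the Hif1a difference of 0.45 (SE 0.13) from 0.053 to 0.035. For Bnip3, Vegfa and Ankrd37 the F test was close to the threshold, and it stayed below it in 17, 15 and 11 of the 42 fits that each left out 1 array.

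P4ha1 and P4ha2, the collagen prolyl hydroxylases, had mean untreated signals of 1217 (range 778 to 1800.4) and 52.5 (range 1.55 to 150.4), and neither was called (adjusted p = 0.073 and 0.38). Ero1l, the oxidase of disulfide formation in the endoplasmic reticulum, had one of 1614 (range 1006 to 5561); Scid line 2 alone reached the top value, with 1586 and 1948 in the other Scid lines, and Scid exceeded H2ax-/- lines by 1.09 (SE 0.32, adjusted p = 0.044). Ndrg1, a stress-induced gene, had a mean of 373 (range 49.6 to 1469.6), with Scid line 2 at the top and Atm-/- line 1 at the bottom (adjusted p of the F test 0.21). Adm, the vasodilator peptide adrenomedullin, had one of 43.7 (range 5.86 to 65.8), close to the low end of the scale, and Mxi1, a Myc antagonist, one of 799 (range 567 to 1029) (adjusted p = 0.33 and 0.41).

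Against WT, 5 differences of members were called over the 6 comparisons, all of them higher in the mutant and named above: Pgk1 in Scid, Pfkfb3 in 53bp1-/-, Slc16a1 in H2ax-/-, and both Slc16a1 and Pfkfb3 in Mdc1-/- lines, each with no overlap of the untreated lines. Atm-/- and Mre11A/A lines gave 0 calls. In each, 6 of the 31 members had an unadjusted p under 0.05, as did 1247 and 1711 of all 12363 genes. The same tests called 0.0728% of all genes for Atm-/-, 0.283% for Scid, 2.51% for Mre11A/A, 3.03% for 53bp1-/-, 4.33% for H2ax-/- and 5.18% for Mdc1-/- lines. With at most 2 of the 31 members called in a comparison, these shares stand as background. No share over all genes is given for the lack of overlap, which was read only in differences already called.

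Between pairs of mutants, 49 differences were called over the 15 pairs (adjusted jointly), in 16 of the 31 members; 20.6% of all genes were called in at least 1 pair. Of the 49, 45 lay between Atm-/- or Scid and the other 4 mutants, which is the split of the first component, although only 8 of the 15 pairs cross it; that is 91.8% of the members' calls, and 83.5% of the 7217 calls over all genes crossed it as well. The remaining 4 were Slc16a1 between Atm-/- and Scid, Slc2a1 and Aldoc between Mre11A/A and 53bp1-/-, and Vegfa between 53bp1-/- and Mdc1-/-. In 4 of the 49 the lines of both groups overlapped. That count is of differences already called, and no share over all genes is given for it. With the line as a random block 75 differences were called, and 23.8% of all genes were called in at least 1 pair. Mre11A/A lines stood lower than 53bp1-/- lines for 28 of the 31 members, with a median log2 difference of -0.34, against 0.03 over all genes.

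Levels of 8 members rose and fell together across lines: Pfkl, Aldoa, Tpi1, Pgk1, Pgam1, Pkm, Ldha and Bnip3. These genes were picked after their values were seen, so the following is a description. Over the 21 untreated lines their 28 pairwise Pearson correlations of log2 signal lay between 0.73 and 0.94 with a median of 0.84, against a median of 0.20 over all 465 pairs of members and one of -0.01 between members and all genes. Within genotypes, after each genotype's mean was removed, the median of the 28 was 0.80; over the 21 irradiated arrays it was 0.74. All of these points share an array, a culture and its signal scale. Under quantile normalization the median was 0.78, and 0.80 within genotypes. The mean of the 8 genes correlated at 0.67 over lines with the mean of the 143 bright genes outside the list, but at 0.10 within genotypes; under quantile normalization these were -0.62 and -0.41, so the sign depended on the scaling.

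By the mean log2 signal of these 8 genes, the highest untreated lines were Scid line 3 at 14.04, Scid line 2 at 14.02, Atm-/- lines 1 and 2 at 13.99 each and Atm-/- line 3 at 13.79. Scid line 1 stood at 13.50, among the WT lines, and Mre11A/A line 1 came next after the Atm-/- lines at 13.62. The lowest were Mre11A/A lines 3 and 2, at 12.94 and 13.00. Scid and Mre11A/A thus held lines far apart, and the means of these genotypes rest on 2 of 3 lines each.

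Slc16a1 and Pfkfb3 correlated at 0.86 with each other over the 21 untreated lines (0.65 within genotypes) and between -0.61 and -0.22 with the 8 genes. Within genotypes the correlations with the 8 genes lay between -0.23 and -0.03 for Slc16a1 and between -0.28 and 0.07 for Pfkfb3. Slc2a1 and Hk2 correlated at 0.81, and at 0.79 within genotypes.

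**Figure D3:**
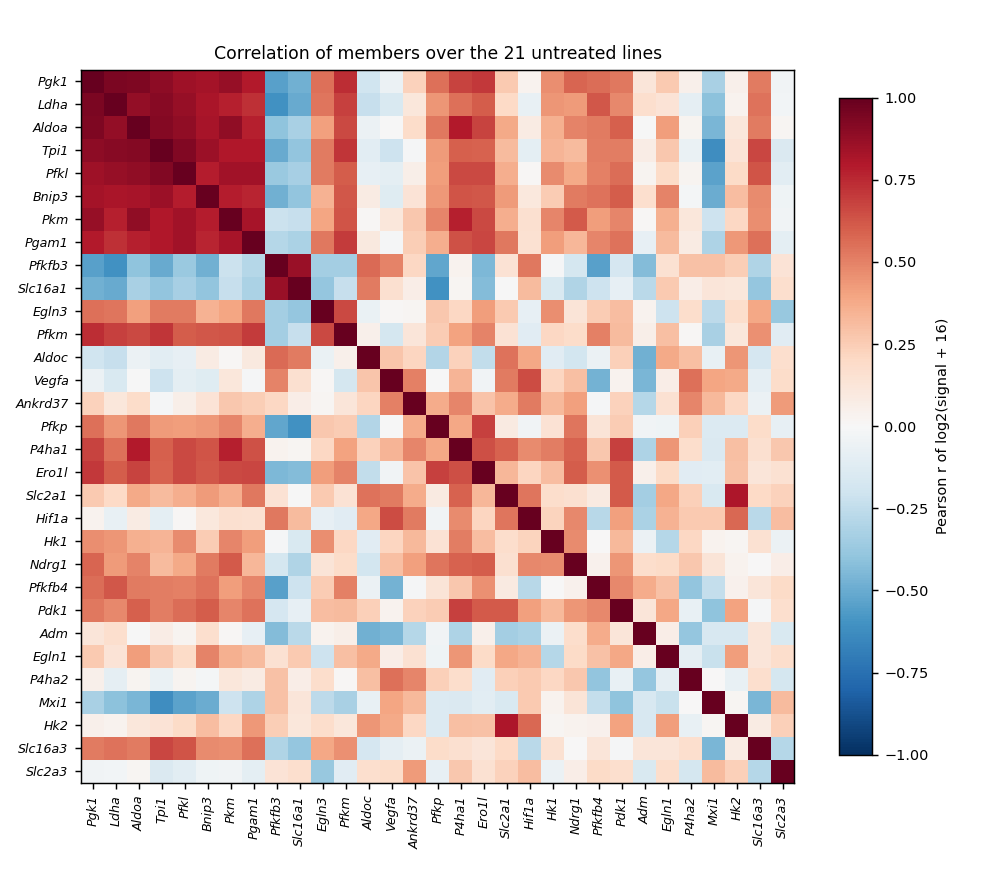
Pearson correlation of log2 signal over the 21 untreated lines for each pair of the 31 members tested (color scale from -1 to 1). The first 8 genes, from Pgk1 to Pgam1, form a group of pairs between 0.73 and 0.94. Slc16a1 with Pfkfb3 (0.86) and Slc2a1 with Hk2 (0.81) form smaller ones.

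A second kind of member differed most between single lines. Untreated signals ran from 4.93 to 1690.5 for Slc2a3, from 44.96 to 5143 for Aldoc, from 4.56 to 1168 for Egln3, from 4.59 to 759.6 for Slc16a3, from 49.6 to 1469.6 for Ndrg1 and from 119 to 1542 for Ankrd37. The extreme Slc2a3 value was Mdc1-/- line 2, whose sister lines gave 1012 and 1208, and its irradiated array gave 16.9. Slc16a3 was highest in Atm-/- line 1 and lowest in Mre11A/A line 2, with 75.6, 85.6 and 106 in the WT lines. Levels returned on the second array of a line: over the 21 lines, untreated and irradiated log2 signals correlated with a median of 0.89 over the members, against 0.65 over all genes. The share of variance between genotypes had a median of 56.5% over the members and 42% over all genes.

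**Figure D4:**
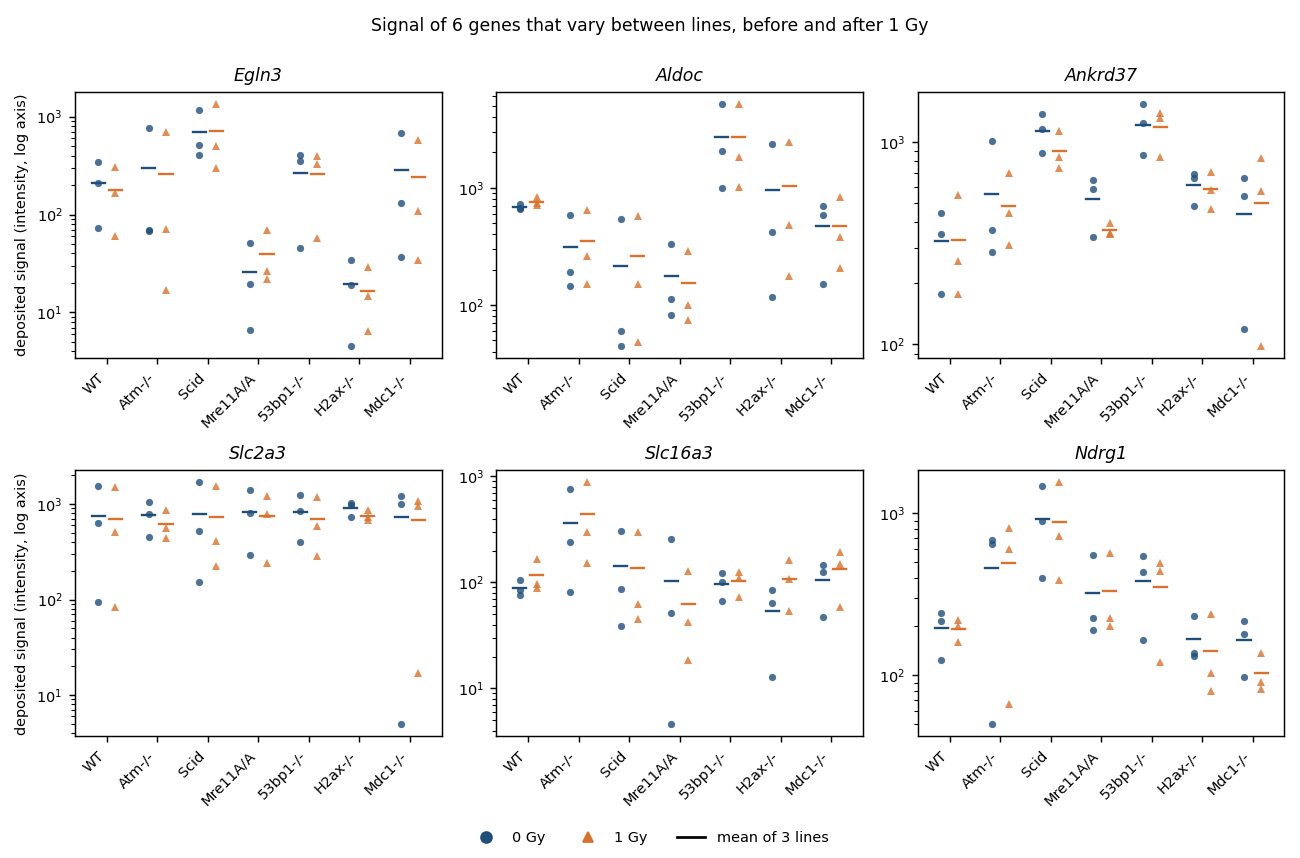
Signal (vertical axis, log scale) of Egln3, Aldoc, Ankrd37, Slc2a3, Slc16a3 and Ndrg1 in each line by genotype, with circles for untreated and triangles for irradiated arrays and a line at the mean of 3. Lines of one genotype differ widely, as Slc2a3 in Mdc1-/- lines (4.93 to 1208); the 2 arrays of a line mostly differ less, with exceptions such as Egln3 in Atm-/- line 2 (a log2 change of -1.34).

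Radiation moved these genes little and, where it did, downward. At the level of single genotypes, comparing 3 irradiated with 3 untreated arrays called 0 members in any genotype. Members with an unadjusted p under 0.05 numbered 1 in WT, 2 in Atm-/-, 1 in Scid, 1 in Mdc1-/- and 0 elsewhere. Of all 12363 genes, 616, 729, 502 and 642 had such a p in WT, Atm-/-, Scid and Mdc1-/- lines. The other genotypes gave 137 to 379. These tests called 0.0971% of all genes in WT, 0.00809% in Atm-/-, 0.089% in Scid, 0% in Mre11A/A, 0.0324% in 53bp1-/-, 0.089% in H2ax-/- and 0.639% in Mdc1-/- lines. With the line as a block, which compares each line with itself, 7 responses of members were called, all lower after radiation. In WT these were Slc2a1, which fell by 0.32 (SE 0.08, adjusted p = 0.023), and Pdk1, which fell by 0.31 (SE 0.09, adjusted p = 0.040), where 1.8% of all genes were called lower. In Atm-/- lines Tpi1 fell by 0.33 (SE 0.08, adjusted p = 0.035; 0.809% of all genes called lower). In Scid lines Hk2 fell by 0.34 (SE 0.09, adjusted p = 0.035) and Vegfa by 0.41 (SE 0.10, adjusted p = 0.025; 0.954% called lower), and in Mdc1-/- lines Pdk1 fell by 0.39 (SE 0.09, adjusted p = 0.0050) and Bnip3 by 0.26 (SE 0.07, adjusted p = 0.017; 2.52% called lower). The blocked fit called 0 members in Mre11A/A, 53bp1-/- and H2ax-/- lines, and it called 0%, 0.421% and 0.93% of all genes lower there.

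These blocked calls rest on 3 lines each, and each of the 7 was lost without at least 1 line of its own genotype. Slc2a1 in WT was lost without WT line 3 or 4 (adjusted p up to 0.31) and without the pair of arrays of high median (0.077). Pdk1 in WT was lost in 7 of the 21 fits that left out a line, among them those without WT line 1 or 3 (adjusted p up to 0.34), and under quantile normalization (0.11). Tpi1 in Atm-/- was lost without Atm-/- line 1 or 3 (up to 0.14), Vegfa in Scid without Scid line 1 or 2 (up to 0.29), and Hk2 in Scid and Bnip3 in Mdc1-/- without any line of their genotype (up to 0.40 and 0.21). Pdk1 in Mdc1-/- lines was lost only without Mdc1-/- line 2 (0.11). No left-out line turned the direction of any of the 7.

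Averaged over the 7 genotypes, Slc16a1 and Pfkfb3 fell after radiation. The unpaired fit called these 2 lower, with 0.849% of all genes lower: Slc16a1 fell by 0.27 (SE 0.07, adjusted p = 0.037) and Pfkfb3 fell by 0.27 (SE 0.07, adjusted p = 0.030), a 1.21-fold drop each. With the line as a block 7 members were lower and 0 higher, where 7.86% of all genes were lower and 6.38% higher. Over the 31 members 23 mean responses were negative, with a median of -0.06, while the median over all genes was near 0 (-0.0022).

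Slc16a1 signals ran from 5268 over a median of 10912 to 14085 in the untreated lines and from 3995 over a median of 7317 to 13411 in the irradiated lines. The per-line log2 changes of Slc16a1 were -0.36, -0.47 and -0.23 in WT, -0.01, -0.28 and -1.06 in Atm-/-, -0.40, -0.09 and 0.13 in Scid and -0.23, -0.27 and 0.05 in Mre11A/A lines. They were -0.35, -0.30 and -0.27 in 53bp1-/-, -0.12, 0.03 and -0.31 in H2ax-/- and -0.30, -0.22 and -0.58 in Mdc1-/- lines. It fell in 18 of 21 lines (blocked adjusted p = 0.00024), and the largest drop was in Atm-/- line 3, the line of highest untreated signal.

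Pfkfb3 signals ran from 477 over a median of 819 to 1465 untreated and from 352 over a median of 659 to 1387 irradiated. Its per-line changes were -0.32, -0.70 and -0.35 in WT, 0.39, -0.16 and -0.77 in Atm-/-, -0.52, 0.14 and 0.03 in Scid and 0.01, -0.13 and 0.12 in Mre11A/A lines. The 53bp1-/- lines changed by -0.08, -0.56 and -0.39, the H2ax-/- lines by -0.52, -0.21 and -0.40 and the Mdc1-/- lines by -0.42, -0.40 and -0.49. It fell in 16 of 21 lines (blocked adjusted p = 0.0013): in all lines of WT, 53bp1-/-, H2ax-/- and Mdc1-/-, and in 2 of 3 Atm-/-, 1 of 3 Scid and 1 of 3 Mre11A/A lines. In the unpaired fit the Slc16a1 call was lost in 17 and the Pfkfb3 call in 6 of the 42 fits that each left out 1 array (adjusted p up to 0.069 and 0.057), whereas in the blocked fit both were called without any 1 of the 21 lines. The second probe sets of both genes, of lower signal, were not called (blocked adjusted p = 0.66 and 0.14).

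The other 5 members of the blocked mean response changed less. Pdk1 fell by 0.15 (SE 0.03, blocked adjusted p = 0.0025, 15 of 21 lines), from a median of 4628 to one of 4015, and 2 of its 3 further probe sets were called lower as well (blocked adjusted p = 0.00042 and 0.024, and 0.41 for the third). Bnip3 fell by 0.10 (SE 0.03, adjusted p = 0.0086, 16 lines), from a median of 7908 to one of 7049. Both were called without any 1 of the 21 lines. Vegfa fell by 0.12 (SE 0.04, adjusted p = 0.035, 16 lines), Hk2 by 0.11 (SE 0.03, adjusted p = 0.037, 13 lines) and Pfkp by 0.07 (SE 0.02, adjusted p = 0.040, 17 lines). These 3 calls were made in 8, 10 and 6 of the 21 fits that left out a line, and were lost under quantile normalization, under which Tpi1 was called and the count was 5. Mean responses of the main glycolytic enzymes were -0.02 for Aldoa, -0.02 for Pgk1, 0.01 for Pkm, -0.03 for Ldha and -0.08 for Tpi1, none of them called on the deposited values. These means average over genotypes that differed in sign: all 5 enzymes were lower in all 3 Atm-/- lines and higher in all 3 H2ax-/- lines, although the F test of the 7 responses called none of them in either fit. The fall was not particular to Atm-/-: in Mre11A/A lines Aldoa, Tpi1, Pgk1 and Pkm were lower in all 3 lines and Ldha in 2 of 3. Tpi1 was lower in all 3 53bp1-/- lines as well. These 5 enzymes are among the genes that rose and fell together, so they are not separate observations, and no all-gene share is given for the pattern. The irradiated array of Atm-/- line 2 had a median signal of 116, against 72.3 untreated. Under quantile normalization the Atm-/- change of Tpi1 was -0.19, against -0.33 on the deposited values. Slc2a3 was lower in 19 of 21 lines by 0.15 on average and Slc16a3 higher in 17 of 21 by 0.26, and neither passed the blocked test (adjusted p = 0.10 for both).

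**Figure D5:**
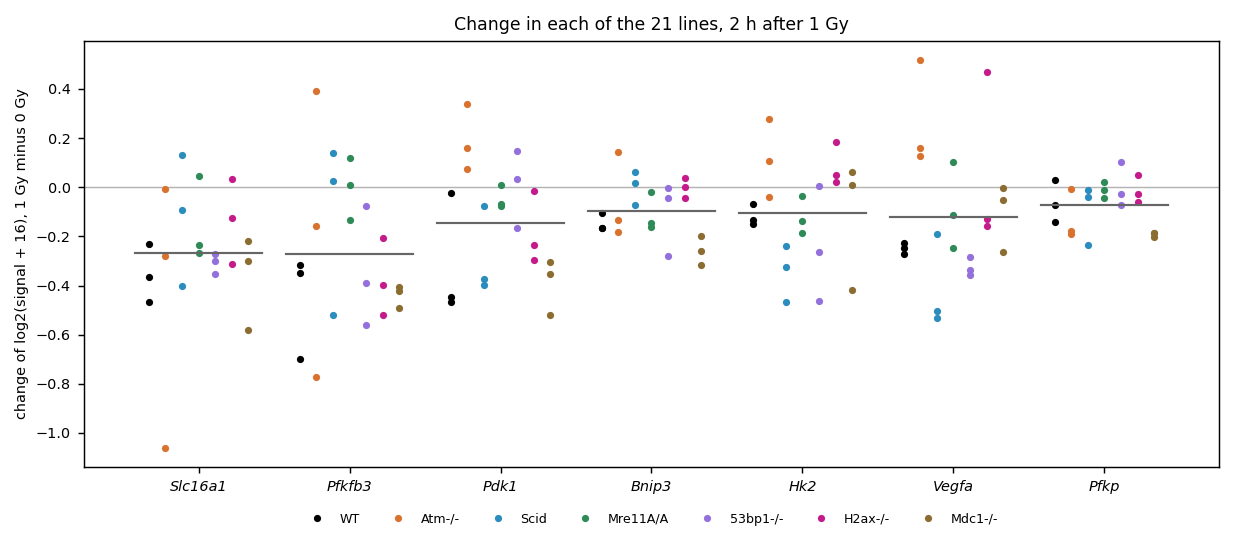
Log2 change from the untreated to the irradiated array of each line (vertical axis) for Slc16a1, Pfkfb3, Pdk1, Bnip3, Hk2, Vegfa and Pfkp. Points are set out by genotype, and a horizontal bar marks each gene's mean over all 21 cell lines. Changes of Slc16a1 lie below 0 in 18 of 21 lines, while Pdk1 and Vegfa lie above 0 in all Atm-/- lines and below 0 in all WT lines.

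Pdk1 was the single member whose response differed between a mutant and WT in a called test, that of Atm-/- with the line as a block. Its signals in WT lines were 5189.7, 4896 and 4737 untreated and 3800.2, 3538 and 4659.5 irradiated. In the Atm-/- lines they were 3687, 5074 and 5672 untreated and 4668, 5675 and 5978 irradiated. Pdk1 fell in all 3 WT lines, in WT line 4 only slightly, and was higher in all 3 Atm-/- lines, a difference in response of 0.50 (SE 0.12, blocked adjusted p = 0.030; unpaired SE 0.30 and adjusted p = 1.00). The call was lost without WT line 1, WT line 3 or Atm-/- line 1 (adjusted p up to 0.17, differences between 0.43 and 0.65), and was made under quantile normalization (0.51, adjusted p = 0.044). It was the single member called in the blocked fit for Atm-/-, where 2.09% of all genes were called. The unpaired fit called 0 members and 0.0243% of all genes. There, 1 member and 600 of all 12363 genes had an unadjusted p under 0.05. For Scid, Mre11A/A, 53bp1-/-, H2ax-/- and Mdc1-/- the blocked fit called 0 members, and it called 0.00809%, 0.00809%, 0%, 0% and 0% of all genes. The unpaired fit called 0 members there too, with 0 at an unadjusted p under 0.05, against 152 to 259 of all genes. An F test of all 7 responses called 0 members in either fit (0.0162% of all genes unpaired and 0.954% blocked). In the unpaired fit 0 members had an unadjusted p under 0.05, against 248 of all genes.

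Genes of neighboring pathways, from lists drawn up by function, were tested in the same fits, in which 16.2% of all genes were called untreated and 7.86% were lower and 6.38% higher after radiation with the block. Of 9 other genes of oxygen sensing 0 were called by the untreated F test, and 1, Cited2, a repressor of HIF activity, was lower after radiation (-0.21, blocked adjusted p = 0.0001). Of 26 other hypoxia-induced genes 7 were called untreated, led by Ddit4, an inhibitor of mTORC1 (adjusted p = 0.00085), which was highest in Scid lines; after radiation 3 were higher in the blocked fit, Ddit4 among them by 1.02 (adjusted p = 5.6e-09), and 3 were lower. Of 14 other genes of glycolysis and pyruvate 1 was called untreated, Pdhb, a subunit of pyruvate dehydrogenase (adjusted p = 1.4e-05), and 1 was higher after radiation, the sugar transporter Slc2a6 (1.16, adjusted p = 5.8e-09). Of 6 pentose phosphate genes 2 were called untreated, Tkt and Rpia (adjusted p = 1e-05 and 0.039), and Rpia, the ribose-phosphate isomerase, was higher after radiation by 0.42 (adjusted p = 9.3e-08), as was Rpe, the ribulose-phosphate epimerase, by 0.12 (adjusted p = 0.037). Of 16 genes of the tricarboxylic acid cycle 4 were called untreated, Ogdh, Sdhd, Suclg1 and Cs (adjusted p = 0.0064, 0.0094, 0.033 and 0.046), and Ogdh was higher after radiation by 0.09 (blocked adjusted p = 0.033).

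Of 9 metabolic genes known as p53 targets 0 were called untreated and 3 were higher after radiation, led by Sesn2, a stress-induced inhibitor of mTORC1 (1.46, blocked adjusted p = 5.5e-10), and Lpin1, a phosphatidate phosphatase (0.95, adjusted p = 1.9e-07), while 1, Pck2, a mitochondrial enzyme that makes phosphoenolpyruvate, was lower (-0.12, adjusted p = 0.0014). Tigar, which lowers fructose 2,6-bisphosphate, had a mean response of 0.06 (adjusted p = 0.63). As a check that the lines responded, Cdkn1a, Cd40 and Mdm2 were higher by 1.72, 1.90 and 1.06 (blocked adjusted p = 2.1e-14, 1.7e-09 and 1.9e-10). Among 5 regulators of glycolytic genes, Mlxip was called untreated (adjusted p = 0.0090), and Myc was lower after radiation by a log2 difference of -0.55 (unpaired adjusted p = 0.0066, blocked 2.0e-09). The cause of the lower Slc16a1 and Pfkfb3 signals was not tested.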

How the data were processed

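RNA of 21 pre-B cell lines, each untreated and irradiated, was hybridized to 42 Affymetrix arrays. As deposited, the table holds linear MAS5 intensities per probe set, a tool named in the submitters' processing notes, and the mean of every array was 500 once 2% of the values were trimmed at either end. Neither detection calls nor scanner files were used, and 3 arrays per group limit the precision. Of 45101 probe sets 64 were controls, 34945 had 1 symbol in the platform annotation, 932 several and 9160 none here. Probe sets above the array median on at least 3 arrays were kept (28260, of which 23245 had 1 symbol), and the one of highest mean was used per gene, which left 12363 genes. Symbols are those of the platform, and older member names were matched through the Entrez identifiers of RefSeq.

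Values were tested as log2(signal + 16), which understates changes of low signals, with limma 3.58.1 in R 4.3.3 (trended moderated variances, 14 groups, 28 residual degrees of freedom). Two-sided p-values were adjusted by Benjamini-Hochberg over all genes within a comparison (threshold 0.05), jointly over the 15 pairs of mutants. Whether replicate numbers pair the arrays was decided before calls were compared: correlations of deviations from the group means ranged from 0.358 to 0.647 over the 21 pairs with the same genotype and number, and from -0.447 to -0.0546 over 42 pairs with other numbers. Responses were therefore also fitted with a term for each line as a block (14 degrees of freedom left), and untreated levels with the line as a random block (consensus correlation 0.531). The fits were tested on simulated data with known changes.

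The members and lists were chosen with earlier results of these data known. Every member was to be named; signals of single arrays were given for the 12 members of smallest untreated p, per-line changes for those of smallest blocked p, and at most 4 called genes per further list; other single values were chosen after they were seen. Alternatives were 2 other pseudocounts, 2 other filters, quantile normalization, 75th percentile centring, the mean of a gene's probe sets, other probe sets, no variance trend, the untreated arrays alone, each array left out, and both arrays of high median left out. Cyclic loess, the F test within subsets of genotypes, and combinations of the block with a scaling or a left-out line were chosen after seeing the data. Promoters came from RefSeq (GRCm38.p6). Values were read with data.table (version 1.17.8), and figures were made in Python 3.11.15 with matplotlib 3.10.9 and numpy 2.4.6.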

Additional observations from a re-analysis of the deposited data

Results flagged for a closer look

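Responses of a mutant and of WT that differed in direction were looked for among the members. The Pdk1 response was 0.50 higher in Atm-/- than in WT lines, with all 3 lines of each genotype moving in opposite directions; the difference was called with the line as a block (SE 0.12, adjusted p = 0.030, limma) and not in the unpaired fit. The Vegfa response was 0.52 higher in Atm-/- than in WT lines, again with opposite directions in all 3 lines of each, and missed the threshold with the block (SE 0.14, adjusted p = 0.062). The Hk2 response was 0.20 higher in H2ax-/- than in WT lines with opposite directions, and missed the threshold with the block (adjusted p = 0.99). The Egln3 response was 0.68 higher in Mre11A/A than in WT lines with opposite directions, and missed the threshold with the block (adjusted p = 0.63). With 6 mutants and 31 members some opposite directions arise without any difference, and the cause of these was not tested.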

How the results depend on the processing

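The 13 untreated members called among the 7 genotypes became 8 with the mean of each gene's probe sets, 7 with the 21 untreated arrays alone, 18 with the replicate block (random), 1 among WT, Atm-/- and Scid only and 0 among the other 4 genotypes; without 1 array the count lay between 6 and 13, with 6 without untreated Scid line 2, 7 without Mre11A/A line 3 and 8 without Scid line 3. The 5 calls against WT became 3 without a filter, 9 with the strict filter, 1 with 75th percentile centring, 1 with the mean of probe sets, 2 with untreated arrays alone and 7 with the block; without 1 array they numbered 1 to 9 (1 without WT line 1, 2 without WT line 3 or 4, 3 without Mdc1-/- line 1, 9 without Atm-/- line 1 and 8 without Atm-/- line 2 or 3). The 49 calls between pairs of mutants became 31 under quantile normalization and 75 with the block, and numbered 41 to 62 without 1 array.

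With the replicate block, calls of single genotypes went from 0 to 7 (6 with quantile normalization or cyclic loess as well), and mutant responses against WT from 0 to 1 (1 and 2). The 2 calls of the mean response became 1 with the mean of probe sets, without the variance trend, or without both arrays of high median, 0 to 2 without 1 array, and 7 with the block; blocked counts were 5 with quantile normalization or cyclic loess, 8 with 75th percentile centring, 7 without both arrays of high median, and 4, 5, 6, 7 or 8 without 1 line. Of the 54 called differences between genotypes 42 had a further probe set, which turned the direction of 7, in Pfkfb3 (53bp1-/- against WT, -0.19, and 3 pairs), Pfkl (2 pairs) and Vegfa (1 pair); another turned the mean response of Pfkp (0.023). The cause of these differences was not tested, except that fewer arrays or genotypes enter some of the fits. The F test of the responses gave 0 calls under every setting tried. Members of low signal, such as Adm, P4ha2 and Eno2, give little measurable difference.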
